A study of Homo sapiens with 6 samples.

Results

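F-box proteins are the substrate receptors of the SCF ubiquitin ligases, and the cullins are the scaffolds on which these and related ligases are built. All probe sets of the array were taken whose single gene symbol begins with FBXO, FBXL or FBXW, apart from FBXO5, or is BTRC, SKP1, RBX1, RNF7 or a cullin. This gave 74 genes, read by 182 probe sets, of 18132 genes and 49293 probe sets in all. They comprised 34 FBXO genes, 17 FBXL genes, 12 genes of the FBXW kind with BTRC among them, 8 cullins, and SKP1, RBX1 and RNF7. A single probe set read 27 of the 74 genes, and 4 are not protein-coding in the RefSeq gene table (the pseudogenes FBXL9P, FBXL21P and FBXW4P1 and the antisense RNA FBXW7-AS1).

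Total RNA came from A375, an established human melanoma cell line. In the knockdown group a lentivirus carried a short hairpin RNA against UBE2S, and the other group held control A375 cells; the labels do not say how these were treated. The labels spell the target both UBE2S and UEB2S. Each group had 3 biological replicates with 1 Affymetrix array each, so the number of arrays limits the precision. The labels name no hairpin sequence, clone, passage or time after infection, so the p-values measure the spread between these samples only.

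A cullin-RING ligase joins a cullin to a RING protein, RBX1 or RNF7, which brings in a ubiquitin-conjugating enzyme charged with ubiquitin. At the other end of the cullin an adaptor holds an interchangeable receptor that picks the substrate. On CUL1 that adaptor is SKP1 and the receptor is an F-box protein, named FBXW for WD40 repeats, FBXL for leucine-rich repeats or FBXO for other domains. SCF ligases and the anaphase-promoting complex, the ligase that UBE2S serves, share the work of destroying cell cycle regulators. The comparison of knockdown with control arrays asks which of these transcripts differ between cells given the UBE2S hairpin and control cells.

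Each value is a log2 expression from which the probe set's own median over 6 arrays has been taken, which leaves differences between arrays and no level. UBE2S, the target, stood at -1.13, -1.05 and -1.01 in the knockdown arrays and at 1.06, 1.01 and 1.01 in the control arrays, a difference of -2.09 (SE 0.04, adjusted p = 9.23e-08 in limma). The step in which the values are rounded places each probe set in a coarse class of signal before centring, called high, middle or low. Of 7 measured markers of the melanocyte lineage, 2 (S100B and SOX10) had a probe set of the high class, against 0 of 13 markers of blood, endothelial, epithelial and fibroblast cells. Of all 18132 genes 6488 had one. Low-class probe sets were 4 of 14 for the lineage, and middle-class ones 18 of 39 for the other markers, so the classes do not identify the cells. Of the 7 lineage markers S100B rose by 1.09 (SE 0.04, adjusted p = 5.51e-07) and TYRP1 by 0.22, a call lost with hybridization spike-in centring (0.06), while MITF, the lineage's master transcription factor, fell (-0.72, SE 0.04, adjusted p = 6.63e-06). Of the 13 other markers 2 rose (LUM by 0.93, VWF by 0.16) and 1 fell (DCN, -0.23). The share called was 42.9% of the lineage markers and 23.1% of the others, against 40.1% of all genes. The part of either list in the results was not tested. Without probe sets shared between transcripts VWF and DCN did not pass (0.080 and -0.0011), VWF turned to -0.0056 with hybridization spike-in centring, and its call was lost without knockdown replicate 1 or 2 or control replicate 2 (adjusted p up to 0.0708). DCN did not pass with its largest-variance probe set (-0.30) or its middle-class ones (-0.15). With the level of each probe set removed, a summed level of these markers could not be given. Hybridization spike-in transcripts were 0.168 higher and poly-A spike-ins 0.0978 higher in knockdown arrays, and the 3' to 5' difference of the ACTB control probe sets was 0.191 higher, each without overlap between the groups. The part of these differences in the results was not tested.

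Of the 74 genes 16 rose and 18 fell, 45.9% of the members, at an adjusted p under 0.05 in limma. Among all genes 40.1% passed that test, 21.4% upward and 18.6% downward, so the share among the members was near the background. The median change was -0.0025 for the members and -0.0038 for all genes, and the median absolute change was 0.125 and 0.106. No member changed 2-fold, as 1.06% of all genes did: the members ran from -0.55 for FBXO33 to 0.66 for FBXO6. The groups did not overlap in 39 members (52.7%), against 50% of all genes. At the level of probe sets 37 rose and 39 fell of 182, or 41.8%, where 36.9% of all probe sets passed, 19.5% upward and 17.4% downward. The groups did not overlap in 97 of them (53.3%), against 48.2% of all probe sets, and none reached a 2-fold change, as 1.51% of all probe sets did. Calls were commoner where the signal was higher: 23 of the 29 members with a high-class probe set passed (79.3%) and 11 of the 45 others (24.4%), against 59.6% and 29.2% of all genes so divided.

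**Figure D1:**
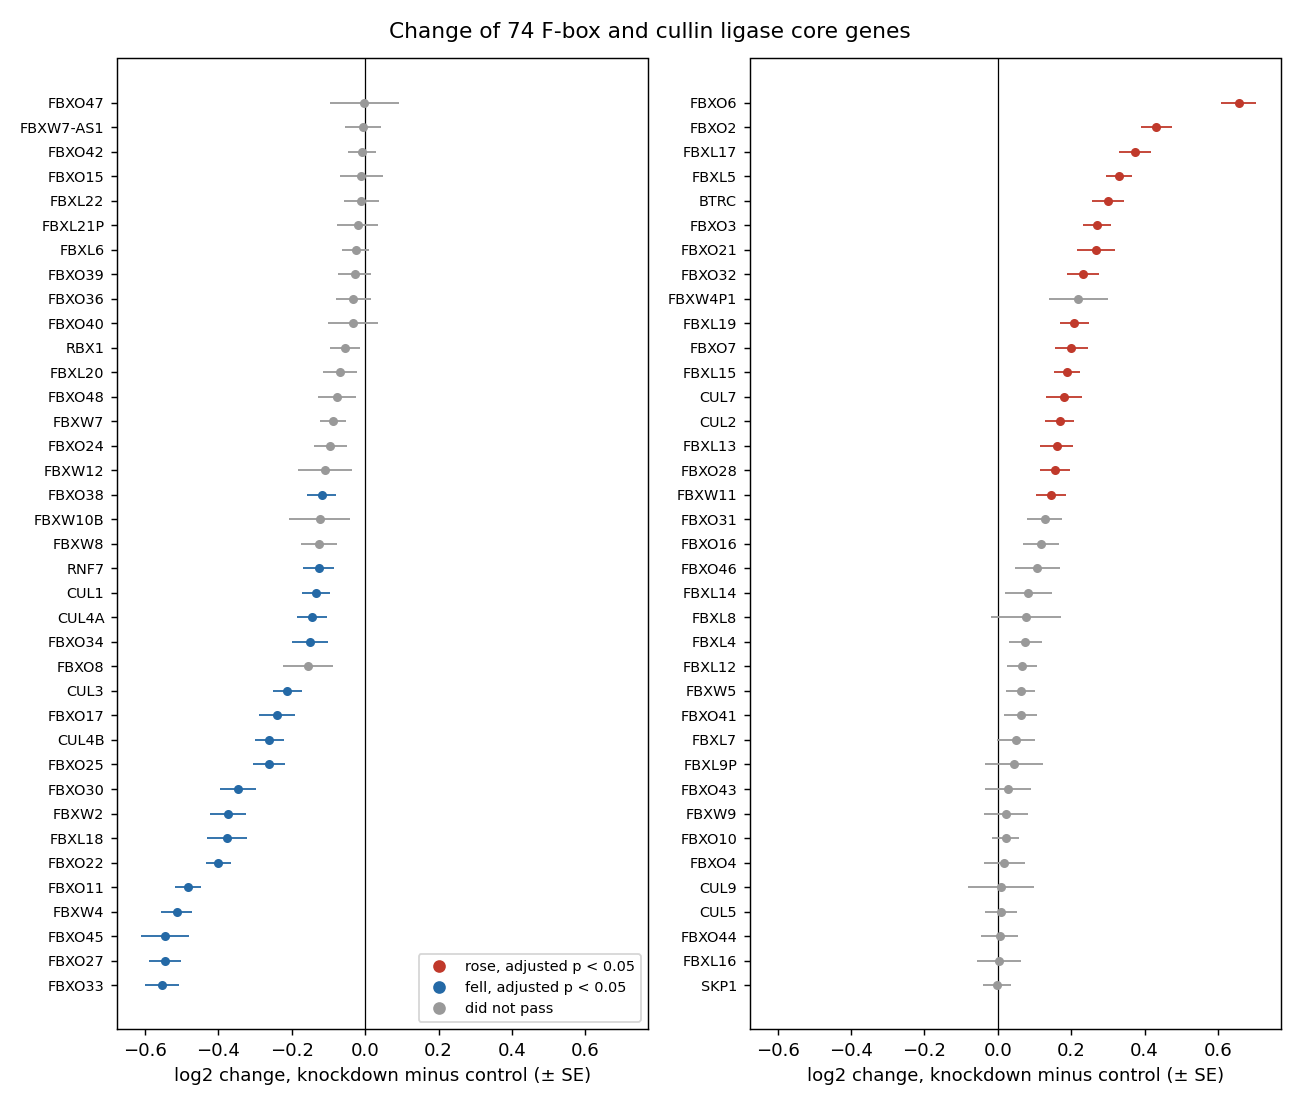
Change of each of the 74 genes, knockdown minus control on the log2 scale, with the standard error of the limma fit, in order from the largest fall (left panel, bottom) to the largest rise (right panel, top). With the deposited scaling, colour marks the 16 genes that rose, the 18 that fell and the 40 that did not pass the test, and the ends are FBXO33 at -0.55 and FBXO6 at 0.66.

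The cullins moved in both directions. CUL4B, CUL3, CUL4A and CUL1 fell, CUL2 and CUL7 rose, and CUL5 and CUL9 did not pass the test. Of the 8 cullins 25% rose and 50% fell, against 21.4% and 18.6% of all genes. CUL4B, one of the paired scaffolds of the DDB1 ligases, stood at -0.14, -0.08 and -0.15 in the knockdown arrays and at 0.14, 0.18 and 0.09 in the control arrays. Every knockdown value lay below every control value, and the change was -0.26 (SE 0.04, adjusted p = 0.00101). CUL3, the scaffold of ligases with BTB receptors, read -0.05, -0.13 and -0.14 after knockdown and 0.14, 0.10 and 0.08 in control, again without overlap (-0.21, SE 0.04, adjusted p = 0.00291). One of its 4 probe sets, of the middle class, carried most of that value at -0.70, while the only high-class one gave 0.02.

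CUL4A, the close relative of CUL4B, stood at -0.03, -0.09 and -0.15 in knockdown and at 0.05, 0.06 and 0.05 in control arrays, a change of -0.15 (SE 0.04, adjusted p = 0.0225). A single one of its 3 probe sets fell (-0.44), and the others gave -0.02 and 0.03. CUL1, the scaffold of the SCF ligases themselves, read -0.13, -0.04 and -0.04 against 0.07, 0.08 and 0.04. Its change was -0.13 (SE 0.04, adjusted p = 0.0256), and its high-class probe sets gave -0.25, which passed, and -0.02, which did not. The call of CUL4A was lost without knockdown replicate 2 or 3 or any 1 control replicate (adjusted p up to 0.0631), and that of CUL1 without knockdown replicate 1 or control replicate 1 or 2 (up to 0.0801) and with the replicate number as a block (0.06).

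CUL2, the scaffold of the VHL ligase, read 0.04, 0.09 and 0.12 after knockdown and -0.04, -0.10 and -0.13 in control cells. It rose by 0.17 (SE 0.04, adjusted p = 0.0107), and both of its probe sets, of the high class, rose (0.17 and 0.16). CUL7, which joins FBXW8 to a ligase of its own, stood at 0.08, 0.06 and 0.17 against -0.08, -0.15 and -0.01, a rise of 0.18 (SE 0.05, adjusted p = 0.0204). Both rises were near 0 with hybridization spike-in centring, at 0.0007 for CUL2 and 0.013 for CUL7. The call of CUL7 was also lost with its largest-variance probe set (adjusted p = 0.0608) and without knockdown replicate 3 or control replicate 1 or 2 (up to 0.0642).

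CUL5, which like CUL2 works with the elongins, read -0.01, -0.07 and 0.06 in knockdown and -0.02, 0.01 and -0.04 in control arrays, a difference of 0.0095 with a 95% interval from -0.09 to 0.11. CUL9, a relative of CUL7, spread from -0.23 to 0.15 in the knockdown arrays and from -0.07 to 0.03 in the control arrays, with a difference of 0.0098 (interval from -0.20 to 0.22). In both the groups overlapped, and the sign of such small differences turned with the scaling, to -0.16 for each with hybridization spike-in centring, where CUL5 passed the test.

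Of the adaptor SKP1 and the RING subunits RBX1 and RNF7, only RNF7 passed the test with the deposited scaling, and narrowly. With hybridization spike-in centring SKP1 (-0.17) and RBX1 (-0.22) passed as falls, and RBX1 also passed with poly-A spike-ins (-0.15). SKP1, the adaptor between CUL1 and the F-box, stood at 0.03, 0.03 and -0.03 after knockdown and at -0.02, 0.06 and -0.01 in control arrays. Its difference was -0.0025 (interval from -0.09 to 0.09), although 1 of its 3 probe sets fell (-0.14). RBX1, the RING subunit of most cullin ligases, read -0.02, 0.00 and -0.02 against 0.07, 0.08 and -0.03, a difference of -0.06 (interval from -0.15 to 0.04) with overlapping groups. RNF7, the RING subunit known mainly from CUL5 ligases, stood at -0.08, -0.09 and -0.03 against 0.13, 0.02 and 0.02. Its change of -0.13 (SE 0.04) passed narrowly (adjusted p = 0.0469). That call was lost without any 1 of the 6 arrays (adjusted p from 0.0553 to 0.154) and with the replicate block (0.0841).

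**Figure D2:**
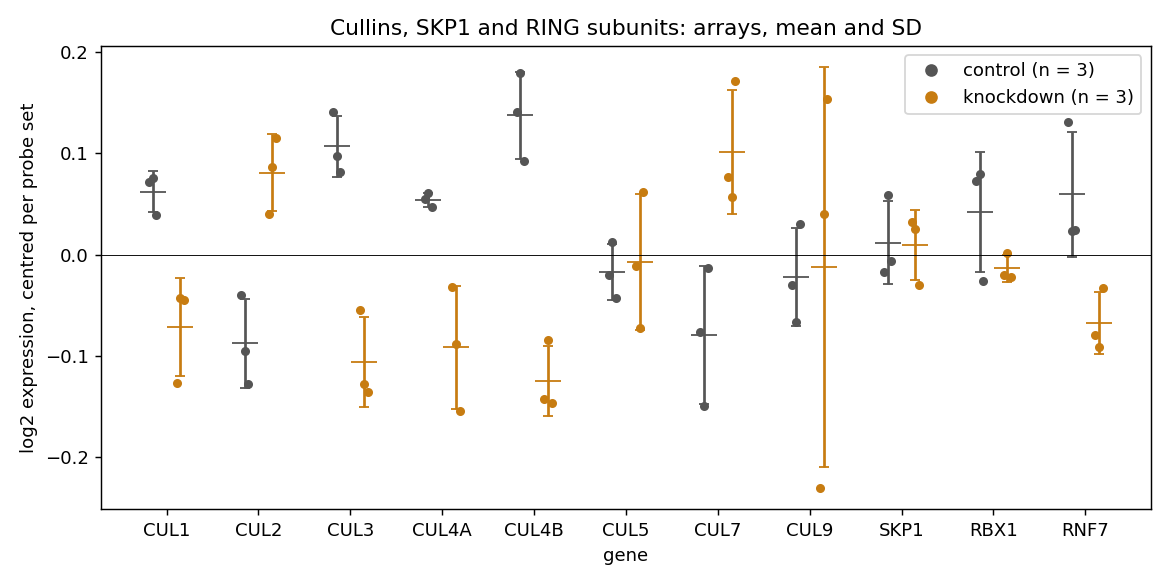
Centred log2 expression of the 8 cullins, SKP1, RBX1 and RNF7, with a point for each array, and the mean and SD of each group (n = 3). CUL4B and CUL3 show the widest gaps below control (-0.26 and -0.21), CUL2 and CUL7 lie above it (near 0 with hybridization spike-in centring, at 0.0007 and 0.013), and the groups overlap for CUL5, CUL9, SKP1 and RBX1.

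Among the FBXW genes 2 rose and 2 fell of 12 (33.3% called, against 40.1% of all genes). BTRC and FBXW11 are close paralogs that recognize phosphorylated degrons in proteins such as beta-catenin and the NF-kB inhibitor NFKBIA, and both rose. BTRC read 0.10, 0.21 and 0.17 after knockdown and -0.11, -0.18 and -0.14 in control arrays, without overlap. It rose by 0.30 (SE 0.04, adjusted p = 0.000708), and all 4 of its probe sets rose, by 0.20 to 0.39. FBXW11 stood at 0.06, 0.06 and 0.06 against -0.05, -0.05 and -0.15. Its rise of 0.15 (SE 0.04, adjusted p = 0.0228) was lost without knockdown replicate 1, 2 or 3 or control replicate 3 (adjusted p up to 0.0629) and turned to -0.02 with hybridization spike-in centring, where BTRC stood at 0.13 (adjusted p = 0.0541).

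FBXW4, the dactylin gene, lay at -0.21, -0.33 and -0.30 in knockdown and at 0.25, 0.21 and 0.24 in control arrays, a fall of 0.51 on the log2 scale (-0.51, SE 0.04, adjusted p = 3.38e-05) read by a single probe set. FBXW2 stood at -0.17, -0.26 and -0.16 against 0.11, 0.24 and 0.18, with a change of -0.37 (SE 0.05, adjusted p = 0.000434). Its probe sets disagreed: a high-class and a middle-class one fell (-0.62 and -0.58), and the third, of the high class, gave 0.08 and did not pass. FBXW7, the receptor for cyclin E, MYC and NOTCH1 and a tumour suppressor, read -0.03, -0.09 and -0.04 after knockdown and 0.01, 0.05 and 0.05 in control arrays. The groups did not overlap, and the difference of -0.09 (SE 0.04, adjusted p = 0.0903) did not pass. It passed with the largest-variance probe set (-0.21, adjusted p = 0.034) and with both spike-in centrings.

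Of 34 FBXO genes 7 rose and 10 fell (20.6% and 29.4%, against 21.4% and 18.6% of all genes). A single subfamily held both the largest rise of all members and, after FBXO33, the largest fall. FBXO2, FBXO6, FBXO17, FBXO27 and FBXO44 share a domain that in FBXO2 and FBXO6 binds N-linked glycans of misfolded glycoproteins. They were grouped after their values were seen, so the grouping is a description. FBXO6 stood at 0.27, 0.41 and 0.42 in the knockdown arrays and at -0.27, -0.30 and -0.29 in the control arrays. The rise of 0.66 (SE 0.05), a 1.58-fold difference, had an adjusted p of 2.2e-05, and a single middle-class probe set read it. FBXO2 read 0.15, 0.24 and 0.26 against -0.25, -0.21 and -0.19 and rose by 0.43 (SE 0.04, adjusted p = 8.75e-05). Its 3 probe sets gave 0.73, 0.56 and 0.01, the last of a kind that can cross-hybridize.

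FBXO27 moved the other way, from 0.30, 0.28 and 0.22 in control to -0.22, -0.30 and -0.33 in knockdown arrays. It fell (-0.55, SE 0.04, adjusted p = 3.31e-05), as did both of its high-class probe sets (-0.44 and -0.66). FBXO17 stood at -0.26, -0.14 and -0.09 against 0.10, 0.06 and 0.07, a fall with a change of -0.24 (SE 0.05, adjusted p = 0.00467). One of its probe sets fell (-0.33), and the other gave -0.15 and did not pass. All probe sets of FBXO27 and FBXO17 are of the kind that can cross-hybridize, so neither gene could be measured without such probe sets. FBXO44 did not pass the test (0.0053, SE 0.05), and none of its 9 probe sets was called or of the high class. In the RefSeq gene table FBXO2, FBXO44 and FBXO6 follow one another on chromosome 1, and FBXO17 and FBXO27 are neighbours on chromosome 19. Within the first cluster 2 genes rose around 1 that was not called, and within the second both fell, as read by those probe sets.

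The 250 bases before the RefSeq start (build GRCh38.p14) are shown for FBXO6 (chr1:11663950-11664199, plus strand) and FBXO27 (chr19:39032550-39032799, minus strand), the member of each cluster with the larger change, written 5′ to 3′ along the gene. Capitals would mark a match to the core of the interferon-stimulated response element (GAAA, any 2 bases, GAAA), the STAT element TTCNNNGAA or the E-box CACGTG, and neither window holds any.
FBXO6: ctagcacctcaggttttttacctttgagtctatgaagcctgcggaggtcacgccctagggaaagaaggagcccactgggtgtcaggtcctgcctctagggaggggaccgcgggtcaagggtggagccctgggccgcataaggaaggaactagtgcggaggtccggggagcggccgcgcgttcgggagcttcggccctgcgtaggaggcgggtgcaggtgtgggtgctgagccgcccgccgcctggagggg
FBXO27: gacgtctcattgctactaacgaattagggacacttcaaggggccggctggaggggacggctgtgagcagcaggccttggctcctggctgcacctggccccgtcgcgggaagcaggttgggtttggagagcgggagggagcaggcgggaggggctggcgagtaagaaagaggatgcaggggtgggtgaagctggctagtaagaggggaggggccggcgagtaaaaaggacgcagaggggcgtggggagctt

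Windows of this length were in RefSeq's table for 56 members and 27305 genes, some with several windows. The interferon element, searched on both strands, was found in 1 member (1.79%), 3.71% of all genes and 3.6% of protein-coding genes. The STAT element was found in 3 members (5.36%), 8.09% of all genes and 7.89% of protein-coding genes. The E-box, which reads the same on both strands and is the element bound by MYC, was found in 6 members (10.7%), close to its share of 9.73% among protein-coding genes, and in 7.73% of all genes. Of these 6, FBXL5 and FBXL19 rose, FBXW4 and CUL4B fell, and RBX1 and FBXW8 did not pass. The sites of the 4 that changed are shown with 10 bases on either side and the E-box in capitals. The rise of FBXL19 did not pass with hybridization spike-in centring (0.04), and the part of the E-box in these changes was not tested. They lie at chr4:15655462-15655487 (FBXL5, minus strand), chr16:30924440-30924465 (FBXL19, plus strand), chr10:101695336-101695361 (FBXW4, minus strand) and chrX:120560013-120560038 (CUL4B, minus strand) of GRCh38.p14.
FBXL5: cgcgcccggtCACGTGggccgcaggg
FBXL19: gctcccgggaCACGTGtgaggtgggt
FBXW4: aaaccggcctCACGTGtttgcagcgc
CUL4B: ctcgaggggtCACGTGctctatttat

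Further falls among the FBXO genes were led by FBXO33, at -0.33, -0.21 and -0.22 after knockdown and 0.29, 0.35 and 0.26 in control arrays. Its change of -0.55 (SE 0.05, adjusted p = 3.98e-05) was shared by its 2 probe sets (-0.51 and -0.59). FBXO45, a receptor known from neurons that works with the ligase MYCBP2, stood at -0.29, -0.29 and -0.16 against 0.37, 0.35 and 0.17. Knockdown replicate 3 and control replicate 3 lay nearest to each other, and the groups did not overlap (-0.55, SE 0.06, adjusted p = 0.000264). All 3 of its probe sets fell, by -0.34 to -0.82.

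FBXO11, the receptor for the lymphoid repressor BCL6, read -0.24, -0.23 and -0.23 against 0.26, 0.28 and 0.21. The knockdown arrays lay within an SD of 0.0044 of each other, and the change was -0.48 (SE 0.04, adjusted p = 2.18e-05). Of its 9 probe sets 8 fell and 0 rose, from -0.95 to -0.28, and the ninth gave -0.17. FBXO22, which targets the histone demethylase KDM4A, stood at -0.20, -0.18 and -0.21 against 0.21, 0.21 and 0.18, a change of -0.40 (SE 0.03, adjusted p = 4.42e-05). Of its 5 probe sets 4 fell (-0.31 to -0.85), and a low-class one gave 0.07. FBXO30 (-0.35, SE 0.05) and FBXO25 (-0.26, SE 0.04), a relative of the muscle gene FBXO32, completed the 10 largest falls together with FBXL18 below.

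Rises among the other FBXO genes were smaller. FBXO3, a receptor linked to inflammatory signalling, read 0.13, 0.17 and 0.12 after knockdown and -0.14, -0.08 and -0.17 in control arrays, and rose by 0.27 (SE 0.04, adjusted p = 0.000723). Of its 8 probe sets 6 rose, by 0.30 to 0.45, and the other two gave 0.00 and -0.08. FBXO21 rose by 0.27 (SE 0.05), from -0.22, -0.05 and -0.21 in control to 0.11, 0.09 and 0.13 in knockdown arrays, with control replicate 2 nearest to the knockdown arrays. FBXO32, which encodes the atrophy-linked ligase atrogin, stood at 0.12, 0.06 and 0.13 against -0.15, -0.06 and -0.17 and rose by 0.23 (SE 0.04, adjusted p = 0.0033). FBXO7, a gene of inherited parkinsonism, rose by 0.20 (SE 0.05, adjusted p = 0.00812), with both probe sets, marked as shared between transcripts, at 0.20. With hybridization spike-in centring none of these 4 rises passed (0.10, 0.10, 0.07 and 0.03).

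The remaining called FBXO genes lay close to the threshold. FBXO28 rose by 0.16, and FBXO34 (-0.15) and FBXO38 (-0.12) fell. The call of FBXO28 was lost without knockdown replicate 2 or control replicate 1 or 3, that of FBXO34 without knockdown replicate 1 or 2 or control replicate 2 or 3, and that of FBXO38 without any array but control replicate 3 (adjusted p up to 0.0606, 0.121 and 0.142). None of the 4 probe sets of FBXO38 passed alone, nor did the only probe set of FBXO34 in the limma fit on probe sets (adjusted p = 0.0662). The calls of both genes were also lost with the largest-variance probe set.

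**Figure D3:**
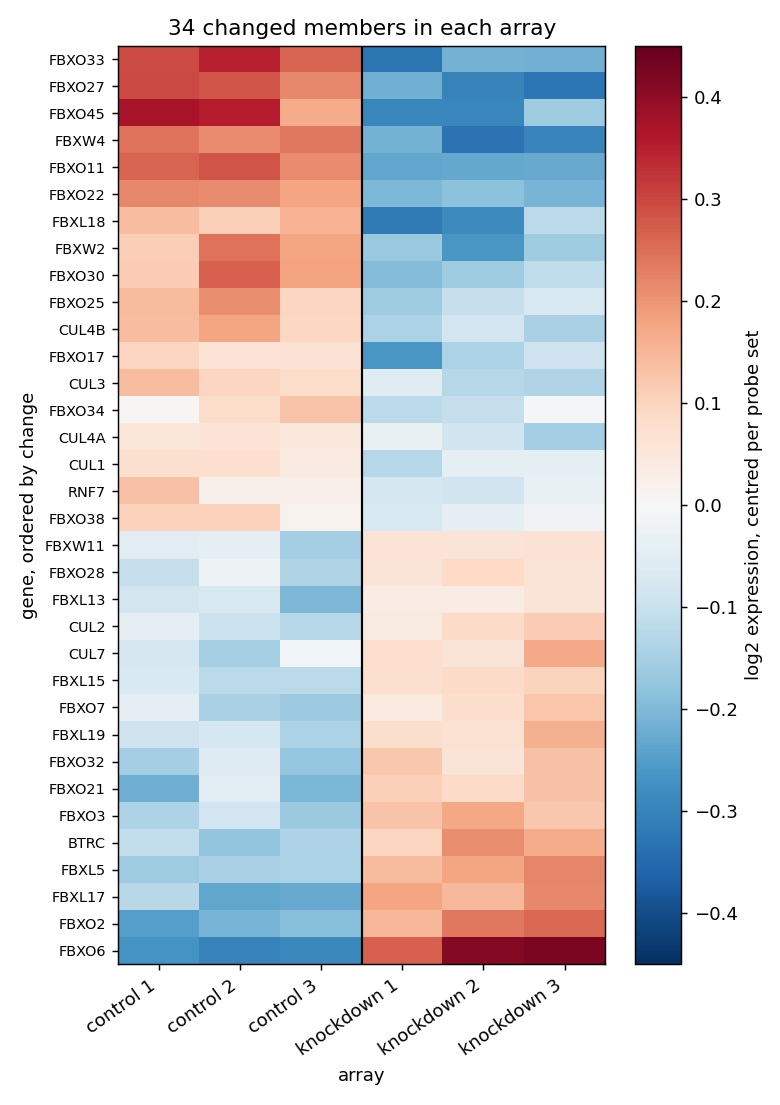
Centred log2 expression of the 34 changed members in each of the 6 arrays, ordered by change, with control arrays on the left of the line and knockdown arrays on the right. Blue is low and red is high; rows run from FBXO33 (top, -0.55) to FBXO6 (bottom, 0.66), and in each of them the 3 knockdown arrays lie on 1 side of the 3 control arrays.

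Among the FBXL genes 5 of 17 rose and 1 fell, and the median of the 17 was 0.07. That is 35.3% called, 29.4% upward and 5.88% downward, against 40.1%, 21.4% and 18.6% of all genes. FBXL17, which takes apart BTB dimers of the wrong composition, stood at 0.18, 0.15 and 0.22 after knockdown and -0.12, -0.23 and -0.23 in control arrays. It rose by 0.37 (SE 0.04, adjusted p = 0.000242), and so did each of its 4 probe sets (0.26 to 0.52). FBXL5, the iron-sensing receptor for the iron regulatory protein IREB2, read 0.14, 0.18 and 0.22 against -0.16, -0.15 and -0.14, a rise of 0.33 (SE 0.04, adjusted p = 0.000174) shared by both high-class probe sets (0.34 and 0.32), which are marked as shared between transcripts. FBXL19, which also has a CXXC zinc finger that binds CpG islands, stood at 0.08, 0.07 and 0.16 against -0.09, -0.08 and -0.14. Its rise of 0.21 (SE 0.04, adjusted p = 0.00366) came from 1 of 2 probe sets (0.38 and 0.03).

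FBXL18 was the FBXL gene that fell, at -0.32, -0.29 and -0.12 in knockdown and 0.14, 0.11 and 0.16 in control arrays. Its change was -0.38 (SE 0.05, adjusted p = 0.000812), and its only probe set not marked as shared or cross-hybridizing gave -0.27 (adjusted p = 0.0626 in that fit). FBXL15 rose by 0.19 (SE 0.04) and FBXL13 by 0.16 (SE 0.04). FBXL13 was read by low-class probe sets only, and its call was lost without knockdown replicate 2 or 3 or control replicate 3 (adjusted p up to 0.0586). With hybridization spike-in centring FBXL19, FBXL15 and FBXL13 did not pass, at 0.04, 0.02 and -0.0072.

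The other 40 members did not pass the test. They were CUL5, CUL9, SKP1, RBX1 and FBXW7 above, with FBXO44 and the following. FBXO4 (0.02) and FBXO31 (0.13), both known as receptors for cyclin D1, and FBXW8 (-0.13), the partner of CUL7, were among them, although the groups of FBXO31 did not overlap and 1 of 4 probe sets of FBXW8 fell (-0.25). Of the FBXO genes FBXO8, FBXO10, FBXO15, FBXO16, FBXO24, FBXO36, FBXO39, FBXO40, FBXO41, FBXO42, FBXO43, FBXO46, FBXO47 and FBXO48 also stayed below the threshold, and they ran from -0.16 (FBXO8) to 0.12 (FBXO16). Of the FBXL genes these were FBXL4, FBXL6, FBXL7, FBXL8, FBXL12, FBXL14, FBXL16, FBXL20, FBXL22, FBXL9P and FBXL21P, between -0.07 (FBXL20) and 0.08 (FBXL14), and of the FBXW genes FBXW5, FBXW9, FBXW10B, FBXW12, FBXW4P1 and FBXW7-AS1. The pseudogene FBXW4P1 stood highest among the genes that did not pass, at 0.22 (SE 0.08, adjusted p = 0.0627), while FBXW4 fell. A single probe set, or probe sets of the low class only, read many of these genes. Of the 27 members with 1 probe set 5 were called (18.5%, against 31.1% of all such genes). Of the 9 members with low-class probe sets only, 1 was called (11.1%, against 40.1% of all genes of any class).

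Of the 47 members with at least 2 probe sets, 0 had probe sets called in opposite directions. In 8 of the 29 called genes among them every probe set was called the same way: BTRC, CUL2, FBXL5, FBXL17, FBXO7, FBXO27, FBXO33 and FBXO45. In the other 21 at least 1 probe set did not pass. The distance between the lowest and the highest probe set of a gene had a median of 0.188 and exceeded 0.5 in 6 genes, of which FBXO22 (0.92), FBXO11 (0.78) and CUL3 (0.72) had the largest. These counts were not taken over all genes, so they cannot be called particular to the members. The files do not say which transcripts each probe set reads.

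**Figure D4:**
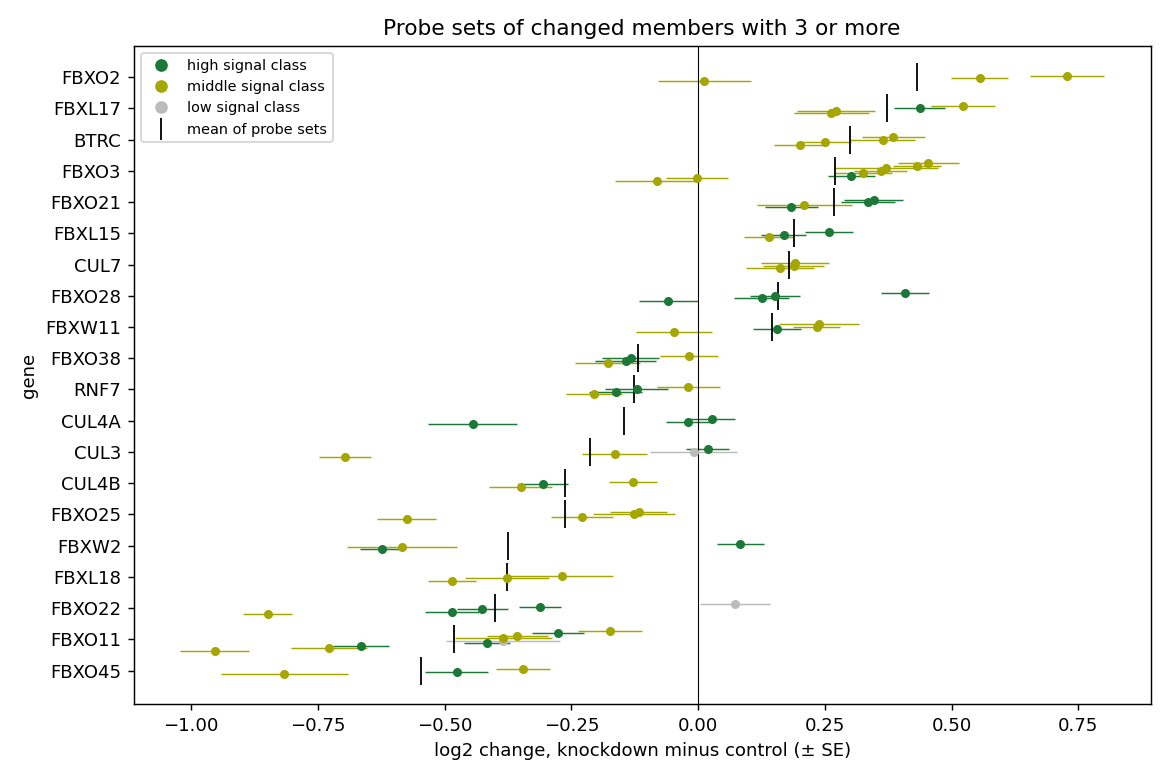
Change of each probe set (points, ± SE of the limma fit, knockdown minus control on the log2 scale) for the changed members with 3 or more probe sets, coloured by signal class, with the mean of the gene as a black bar. In FBXW2, FBXO2 and FBXO22 a probe set near 0 stands apart from others of the same gene. In CUL3 and CUL4A 1 falling probe set stands apart (-0.70 and -0.44) while others lie near 0. In BTRC, FBXL17 and FBXO45 all lie on 1 side.

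How many members rose and how many fell moved with the scaling. When the arrays were centred on the hybridization spike-ins, the median of all genes moved from -0.0038 to -0.17 and that of the members from -0.0025 to -0.17. Then 4 members rose and 39 fell, against 9.73% and 50.7% of all genes. With poly-A spike-ins 9 rose and 27 fell, against 13.7% and 34.7% of all genes. FBXO6 (0.49), FBXO2 (0.26), FBXL17 (0.21) and FBXL5 (0.16) were the 4 rises with hybridization spike-in centring. All 18 falls passed under both centrings, which lower every gene's change alike and so favour falls. FBXW11, FBXO28 and FBXL13 turned to slightly negative values (-0.02, -0.01 and -0.0072). All other statements here are relative to the array-wide level that the deposited values set.

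**Figure D5:**
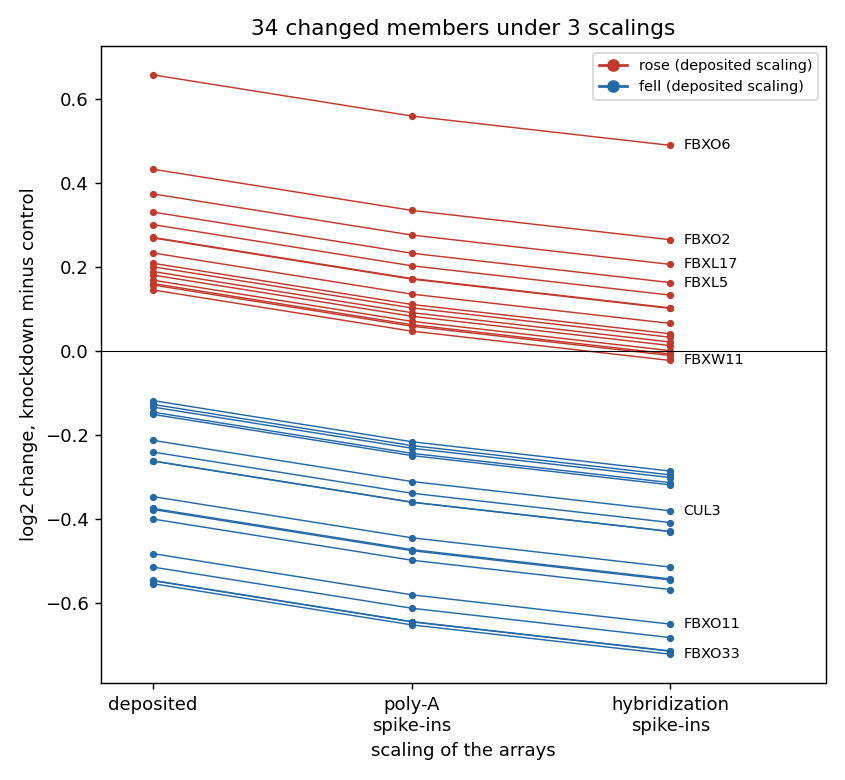
Change of the 34 called members (1 line each, knockdown minus control on the log2 scale) under the deposited scaling and after centring the arrays on 24 poly-A or 18 hybridization spike-in probe sets. The lines drop by the same amount for every gene; FBXO6, FBXO2, FBXL17 and FBXL5 remain highest at 0.49, 0.26, 0.21 and 0.16.

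Other genes of cullin ligases were taken from 9 lists of adaptors, receptors and regulators, of which 138 genes were measured. Rises numbered 39 and falls 38 (55.8% called, against 40.1% of all genes), and the median was 0.02. The list of F-box genes under other symbols counted 1 rise and 3 falls among 8 (12.5% and 37.5%, against 21.4% and 18.6% of all genes). SKP2, the receptor for the cell cycle inhibitor CDKN1B, fell (-0.42, SE 0.04, adjusted p = 5.62e-05), as did KDM2A (-0.35), a histone demethylase with an F-box. The list's only rise was TSPAN17, whose symbol is that of a tetraspanin and not of an F-box protein. It rose by 0.26, a call lost with hybridization spike-in centring (0.09).

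NEDD8, a ubiquitin-like protein, activates cullins when it is attached to them. Of 9 measured genes of its conjugation 4 rose and 1 fell (44.4% and 11.1%, against 21.4% and 18.6% of all genes). DCUN1D4, one of the co-ligases of cullin neddylation, rose by 0.64 (SE 0.04, adjusted p = 7.35e-06) and UBE2F, the conjugating enzyme for CUL5, by 0.35, while the co-ligase DCUN1D5 fell (-0.39). NEDD8 itself did not pass (0.02). Of 11 genes of NEDD8 removal, among them the COP9 signalosome, 3 rose and 2 fell (27.3% and 18.2%). The signalosome subunits COPS8 and COPS6 rose by 0.46 and 0.41, and COPS9 and COPS3 fell (-0.37 and -0.32).

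Of 5 exchange factors and inhibitors of cullins, UBXN7 rose by 0.45 and GLMN, which masks RBX1, fell (-0.19), a call lost without knockdown replicate 2 or control replicate 1 or 2 (adjusted p up to 0.0738). The exchange factor CAND1 did not pass (0.01). Of 5 measured E2 and E3 partners 1 rose and 4 fell (20% and 80%, against 21.4% and 18.6% of all genes). CDC34, the chain-building enzyme of SCF ligases, rose by 0.19, a call lost with both spike-in centrings (0.02 and 0.09), and its relative UBE2R2 fell (-0.27). UBE2G1 fell (-0.48), but not without probe sets shared between transcripts (-0.04, adjusted p = 0.478).

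Receptors of the other cullins likewise moved in both directions. Of 31 adaptors and receptors of CUL2 and CUL5, 12 rose and 9 fell (median 0.04). That is 38.7% and 29%, against 21.4% and 18.6% of all genes. ZER1 and SPSB2 rose by 0.53 and 0.48, and LRR1 and SOCS2 fell (-0.36 and -0.31). Of 41 BTB receptors of CUL3, 11 rose and 9 fell (26.8% and 22%, median 0.04). SPOPL rose by 0.93 (SE 0.04, adjusted p = 1.94e-06) while its paralog SPOP fell (-0.47, SE 0.04), and KLHL28 rose by 0.82 and KLHL21 fell (-0.49). Of 26 genes of the CUL4 adaptor and its DCAF receptors, 5 rose and 9 fell (19.2% and 34.6%, median -0.01). DCAF10 and DCAF13 fell (-0.69 and -0.60), and DCAF12 and DCAF8 rose by 0.42 and 0.26, the latter a call lost with hybridization spike-in centring (0.09). Of the 2 partners of CUL7 OBSL1 rose by 0.33.

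Transcripts of 29 textbook substrates of SCF ligases counted 8 rises and 13 falls, with a median of -0.06. That is 27.6% upward and 44.8% downward, against 21.4% and 18.6% of all genes. MYC, a substrate of FBXW7, fell (-1.11, SE 0.07), as did the phosphatase CDC25A (-0.42), a substrate of BTRC. The cell cycle inhibitor CDKN1C rose by 0.81 and the transcription factor JUN by 0.72. SCF ligases act on the proteins, which were not measured.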

How the data were processed

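The deposited values are log2 expression of 49395 probe sets, 102 of them array controls, on 6 arrays. The submitters' processing notes name affy, RMA and limma without saying which did what. RMA gives base 2, which is assumed for the deposited log2 values. Every probe set has a median of 0 over the 6 arrays (at most 4.85e-07 away), by a centring that the labels do not describe, so signal over background is unknown. Quantile normalization, part of RMA, would hide a change of all transcripts in 1 direction.

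Of the probe sets 44988 carry 1 symbol in the array annotation, 1832 carry several and 2473 carry none. All 74 member symbols matched RefSeq's gene table of GRCh38.p14 by gene number, and 4 probe sets that name a member with another gene were left out. The mean of all probe sets of a gene was fitted with lmFit and eBayes (limma 3.58.1, R 4.3.3), 3 knockdown against 3 control arrays, with no block or filter. The same was done on 49293 probe sets. P-values are two-sided, adjusted by Benjamini-Hochberg over all genes or all probe sets, with a threshold of 0.05. The fit was tested on simulated data. Arrays of 1 group differed by an SD of 0.125 to 0.144, and no array was a copy of another.

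A value in single precision is a multiple of a step set by its size, from which high (8 to 16), middle (4 to 8) and low classes before centring were read. Of 23 background control probe sets 13 were low, so a higher class does not show detection. Named genes are UBE2S, the cullins, SKP1, RBX1, RNF7, BTRC, FBXW7, FBXW11, the 10 largest rises and falls among F-box members without overlap, members with opposite probe sets, and up to 2 changed genes per direction of each list. Other members are named to account for all of them. The members and lists were chosen with earlier results of these data known.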

Additional observations from a re-analysis of the deposited data

How the results depend on the processing

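The 16 rises and 18 falls among the members stayed within 1.5 times those counts with the largest-variance probe set, middle and high classes only, no shared probe sets, array median centring, array weights and robust variances. Leaving out 1 array gave 13 to 17 rises and 13 to 16 falls, and 25 of the 34 calls held without each array in turn. The share of all genes called was not taken in any of these settings. With hybridization spike-in centring 4 members rose and 39 fell, 16 member probe sets rose and 88 fell (37 and 39 as deposited), and 20 partner genes rose and 70 fell (39 and 38 as deposited). Of all genes 9.73% rose and 50.7% fell with that centring, and the share over all probe sets was not taken. With poly-A spike-ins 9 members and 23 partner genes rose, as did 13.7% of all genes. The spike-in differences shift every gene alike. The partner lists were put through these settings as a choice made after seeing the data. UBE2S fell in every setting in which it was measured.

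Same-numbered replicates did not deviate together (correlations of -0.03, -0.016 and -0.105), and pairs with different numbers ran from -0.069 to 0.096. With 3 arrays per group this cannot show whether same-numbered arrays were handled together. With the replicate block 17 members rose and 15 fell, 32 member probe sets rose and 37 fell, and CUL1, FBXO38 and RNF7 lost their calls. The shares over all genes and all probe sets were not taken with that block.

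Of 1059 comparisons of a named gene with an alternative, 982 kept direction and side of the threshold, 55 lost the call, 6 gained one and 16 turned sign. Of these turns 14 were in CUL5, CUL9 and SKP1, which lie near 0 and did not pass, and the others were in FBXW11 and VWF, which had risen. CUL5 (0.0095) went to -0.158 with hybridization spike-ins, -0.0883 with poly-A spike-ins and -0.0142 with array weights, and ran from -0.0251 to 0.0422 with 1 array left out. CUL9 (0.0098) went to -0.158 and -0.0881 with the same spike-ins and ran from -0.0733 to 0.119 with 1 array left out. SKP1 (-0.0025) went to 0.132 with its largest-variance probe set and 0.0116 with array weights, and ran from -0.0170 to 0.0210 with 1 array left out. FBXW11 (0.145) turned to -0.0226 and VWF (0.162) to -0.0056 with hybridization spike-ins. Without shared probe sets UBE2S could not be fitted, as its only probe set is of that kind, nor could FBXL5, FBXO7, FBXO17 and FBXO27.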
